A study of Rattus norvegicus with 16 samples.

Results

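The glutathione peroxidases are a small family of enzymes, and the genes described here are Gpx1 to Gpx7, 7 genes of the rat. They were followed in the stretch of epididymal duct nearest the testis, known as its initial segment, after efferent duct ligation (EDL), an operation that ties off the ducts through which testicular fluid enters the epididymis. Members were all probe sets whose gene symbol in the array's platform annotation is one of the 7, and a gene with more than 1 probe set is led by the one with the highest mean over all arrays. Probe sets matched 6 of the 7 genes, 7 probe sets in all, out of 14217 genes with a symbol on the array. No probe set was matched to Gpx5, so no value is given for it.

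RNA came from adult male Sprague-Dawley rats with no transgene or mutation named. Each rat was ligated on 1 side, and the other side of the same rat had a sham operation. The most proximal piece of the initial segment (zones 1a and 1b) was cut out. The 4 groups were sham, 6 h EDL, 12 h EDL and 18 h EDL, with 4 arrays each and 16 arrays in all. The 1 sham group, given as time point 0 in the labels, served every time, so the comparisons with sham share their control arrays and a change with time apart from ligation was not measured. The labels number the biological replicates from 1 to 4 in each group without saying which animal a number stands for. By its title the study is about signalling by ERK, STAT and NFKB and about cell death, and the comparisons with sham ask how gene expression responds when testicular fluid no longer arrives.

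Glutathione peroxidases use glutathione as the electron donor to reduce hydrogen peroxide and lipid peroxides to water and alcohols. Some members carry selenocysteine in the active site and others carry cysteine, and they differ in where they work: Gpx1 and Gpx2 in the cytosol, Gpx3 as a secreted enzyme in plasma, Gpx4 on lipid peroxides in membranes, and Gpx7 in the endoplasmic reticulum. The epididymis is known for an abundant secreted member, Gpx5, and for protecting the lipids of passing sperm against oxidation.

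The promoters of Gpx2 and Gpx1 are shown because these are the 2 cytosolic members, one of which was called after ligation and one of which was not. Each stretch is the 250 bases just before the annotated start site, from RefSeq on the assembly GRCr8, written 5′ to 3′ along the gene with matches to the motifs searched in capitals. The Gpx2 stretch lies at chr6:101230034-101230283 on the minus strand, and the Gpx1 stretch at chr8:117905212-117905461 on the plus strand.
Gpx2: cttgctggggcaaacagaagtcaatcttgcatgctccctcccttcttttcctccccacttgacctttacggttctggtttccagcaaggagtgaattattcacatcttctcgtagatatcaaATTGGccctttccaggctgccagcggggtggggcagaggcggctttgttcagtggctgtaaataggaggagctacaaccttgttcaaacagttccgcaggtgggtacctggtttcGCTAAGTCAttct
Gpx1: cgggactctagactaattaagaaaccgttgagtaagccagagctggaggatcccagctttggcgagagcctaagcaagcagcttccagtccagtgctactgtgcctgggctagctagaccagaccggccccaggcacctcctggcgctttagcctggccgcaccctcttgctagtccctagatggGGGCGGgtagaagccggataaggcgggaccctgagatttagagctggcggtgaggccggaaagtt
In Gpx2 the capitals nearest the start mark TGACNNNGC, the core of the antioxidant response element, read on the opposite strand. It lay at chr6:101230038-101230046, from position -13 to -5 before the start site, and 10.08% of 33469 rat promoter windows of the same length held this motif on either strand. The other capitals in Gpx2 mark a CCAAT box on the opposite strand at -128 to -124, a motif found in 34.02% of windows. In Gpx1 the capitals mark a GC box, GGGCGG, at -65 to -60, found in 30.47% of windows. The letters of a STAT half-site pair (TTCNNNGAA, in 7.67% of windows), an ETS core (CCGGAAG, 7.27%), AP-1 (TGANTCA, 6.34%), a TATA box (TATAAA, 12.93%) and an E-box (CACGTG, 5.59%) were in neither stretch. Both strands were searched in every case, and a match describes letters and not a site of binding.

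Values are log2 levels after GCRMA, 1 for each probe set and array, and ran from 2.22, the floor, to 15.1. A level under 5 was taken as not told from background, and a probe set was tested if at least 4 of the 16 arrays lay at or above 5, which left 13410 probe sets. On each array 41.2% to 41.8% of probe sets lay at or above 5, and correlations between arrays over all probe sets were 0.974 to 0.996. Precision is limited by the number of arrays. The arrays also divided by replicate number: replicates 3 and 4 differed from replicates 1 and 2, once group was allowed for, in 4954 probe sets by limma (36.9%). A bacterial dap control transcript was at 7.23 to 7.98 in replicates 3 and 4 of sham and 6 h and at 2.22 on all other arrays. Within replicates 3 and 4, 12 h or 18 h against sham or 6 h therefore cannot be told apart from a difference between sets of arrays. Within replicates 1 and 2 the control does not divide the groups. Of the initial segment markers, Adgrg2, Cst8, Ros1 and Etv4 were matched, lay above 5 on all arrays and summed to 14.17 to 14.49 at 18 h, against 14.35 to 14.86 in sham. Etv4, a transcription factor of the ETS family, was called lower at 18 h (-3.92, limma adjusted p 5.04e-05) and at 12 h (-3.08, adjusted p 0.000468). The differences at 18 h were -0.01 for Adgrg2, -0.54 for Ros1 and -0.49 for Cst8, none of them called, and the part of the Etv4 change in the members' levels was not tested. Since these are pieces of tissue, fewer cells of a type and less RNA per cell cannot be told apart.

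Of the 6 matched genes, Gpx1, Gpx3 and the leading probe set of Gpx4 lay above 5 on all 16 arrays. Gpx2 lay at or above 5 on 6 arrays, all of them ligated, so it entered the tests only through the groups in which it was high. Gpx6, Gpx7 and the second probe set of Gpx4 never reached 5. The 4 genes that passed the minimum could be tested, and the other members are given by their values.

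**Figure D1:**
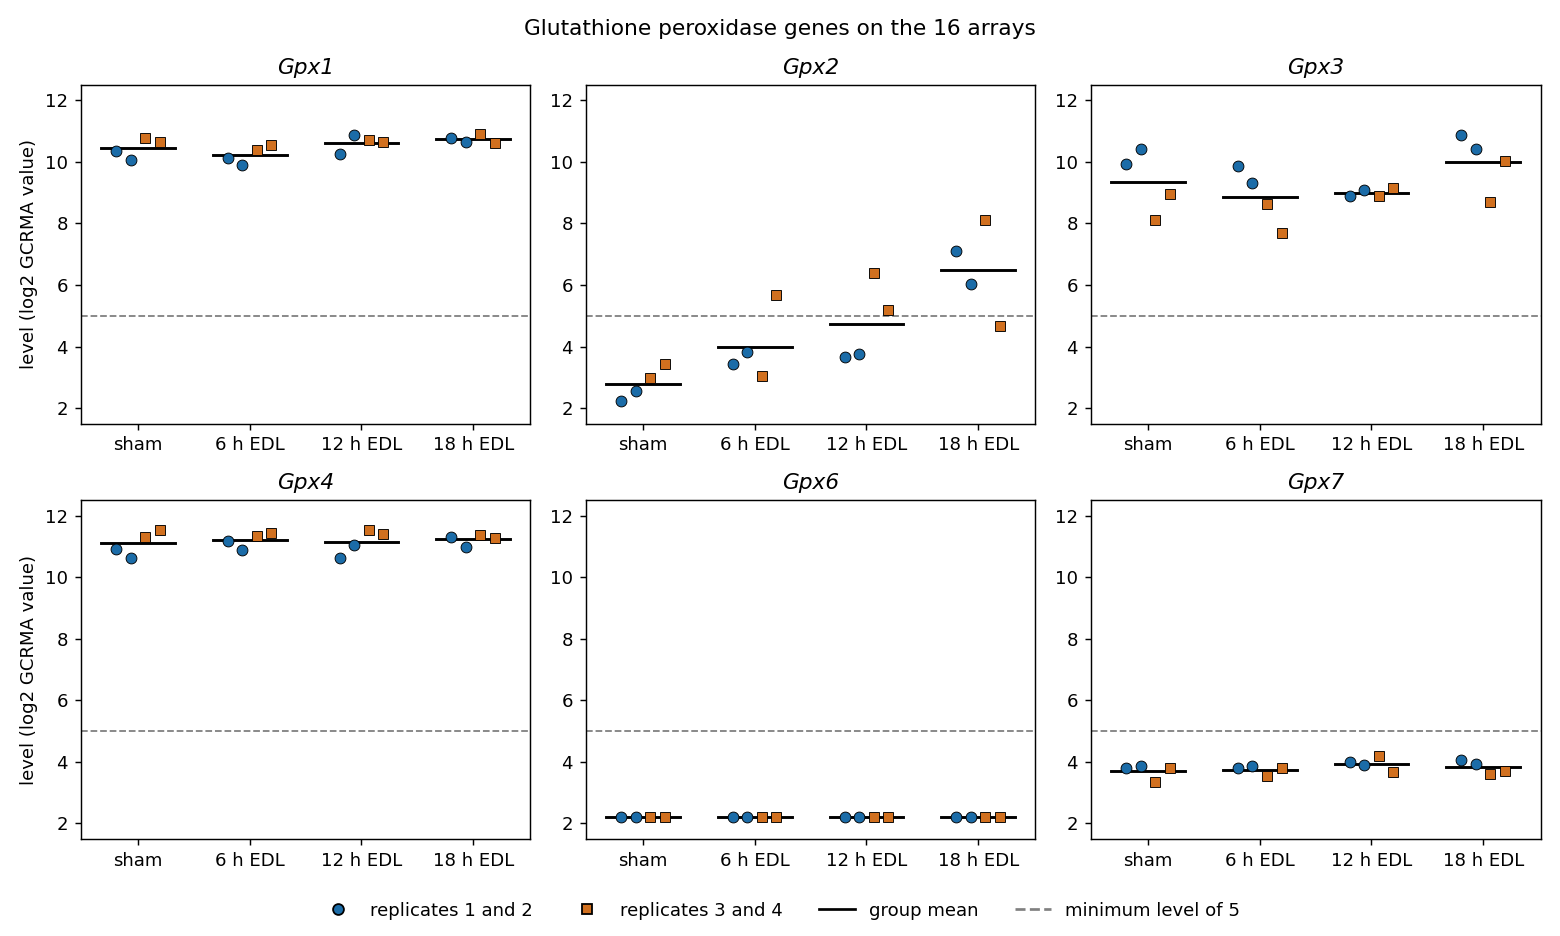
Level of 6 glutathione peroxidase genes on each of the 16 arrays (vertical axis, log2 GCRMA value) in sham, 6 h, 12 h and 18 h EDL, with points for arrays, blue circles for replicates 1 and 2, orange squares for replicates 3 and 4, black bars for group means and a dashed line at the minimum level of 5. Gpx2 climbed past the dashed line on 3 of the 4 arrays at 18 h, Gpx6 sat at 2.22 throughout, and Gpx7 stayed between 3.34 and 4.18.

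Gpx2, a peroxidase known for its place in the epithelium of the gut, was the member called higher. At 18 h its levels were 7.11, 6.04, 8.10 and 4.66 on the log2 scale in replicates 1 to 4, against 2.22, 2.55, 2.97 and 3.43 in sham. All 4 arrays at 18 h lay above all 4 sham arrays. The lowest of them, replicate 4, was itself under 5, so 3 of the 4 arrays at 18 h had a level told from background. The mean was 6.48 ± 1.47 at 18 h and 2.79 ± 0.53 in sham (SD, n = 4 arrays each). The measured difference was 3.69 ± 0.76 (SE), but the sham mean lay in the background and gives no exact base. With every array under 5 set at 5, replicate 4 of 18 h among them, the difference was 1.56 on the log2 scale, 2.95-fold. Since that array may lie lower than 5, 1.56 is not a lower bound. Limma's adjusted p over all tested probe sets was 0.00639. Since Gpx2 passed the minimum level through ligated arrays alone, the fit of all probe sets with no minimum level was set beside it, and its adjusted p was 0.0293.

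At 12 h Gpx2 stood at 3.67, 3.74, 6.40 and 5.17, and at 6 h at 3.43, 3.81, 3.04 and 5.67. The 4 arrays at 12 h also lay above all sham arrays, but those at 6 h overlapped sham. The difference from sham was 1.96 ± 0.76 at 12 h with an adjusted p of 0.155, and 1.20 ± 0.76 at 6 h with an adjusted p of 1, both from limma. Arrays of 1 group differed widely: at 12 h replicates 3 and 4 were at or above 5 and replicates 1 and 2 were not, and at 6 h only replicate 4 was.

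The Gpx2 rise at 18 h was 4.19 ± 0.35 within replicates 1 and 2, where limma's adjusted p was 0.00328, and 3.18 ± 1.29 within replicates 3 and 4, where it was 0.196. The sham arrays of both pairs lay under 5, so neither difference has an exact base. Both fits used the minimum level that Gpx2 passed through ligated arrays alone. The call is lost in that second pair of arrays, which holds the low array of 18 h. With each of the 16 arrays left out in turn from the fit that used the minimum level, the adjusted p was 0.00197 to 0.0235. This range rests on the same selection through ligated arrays. The fit with no minimum level was not repeated with arrays left out. The spread of Gpx2 between replicates was wide: the residual SD of 1.17 was larger than that of 98.3% of tested probe sets, whose median was 0.263.

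Gpx1, the common cytosolic and mitochondrial peroxidase, was measured at 10.78, 10.64, 10.91 and 10.62 at 18 h, against 10.36, 10.07, 10.77 and 10.65 in sham. The groups overlapped, with the 2 low sham arrays being replicates 1 and 2. The difference from sham was 0.28 ± 0.18 at 18 h (95% interval -0.11 to 0.66, adjusted p 0.415), 0.16 ± 0.18 at 12 h (adjusted p 0.717) and -0.23 ± 0.18 at 6 h (adjusted p 1), all from limma. The intervals at 12 h, from -0.22 to 0.55, and at 6 h, from -0.61 to 0.16, likewise leave room for modest changes in either direction. Within replicates 1 and 2 the difference at 18 h was 0.49, and within replicates 3 and 4 it was 0.06.

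Gpx4, which reduces peroxidised lipids in membranes and is also a structural protein of the sperm midpiece, did not pass the test at any time. It was measured at 11.31, 10.98, 11.37 and 11.29 at 18 h, against 10.93, 10.62, 11.30 and 11.54 in sham. The 18 h arrays lay inside the range of sham. The difference was 0.14 ± 0.22 at 18 h, with a 95% interval from -0.33 to 0.61 and a limma adjusted p of 0.794. It was 0.05 at 12 h (interval -0.42 to 0.52) and 0.11 at 6 h (interval -0.35 to 0.58), neither of them called. Sperm markers moved over the same arrays: the summed level of 8 sperm and spermatid markers was 5.91 to 6.32 at 18 h, 5.90 to 7.08 at 12 h and 5.90 to 9.17 at 6 h, against 8.54 to 11.31 in sham. Of the 3 of these markers that were tested, 3 were called lower at 18 h, 3 at 12 h and 1 at 6 h, and Prm2, Tnp1, Tnp2 and Akap4 were under 5 on all arrays. The part of sperm RNA in the level of Gpx4 was not tested.

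Gpx3, the secreted peroxidase of plasma, spread more between arrays of 1 group than between groups. It was measured at 10.86, 10.41, 8.70 and 10.03 at 18 h, at 8.91, 9.08, 8.89 and 9.14 at 12 h and at 9.86, 9.31, 8.63 and 7.70 at 6 h, against 9.94, 10.42, 8.11 and 8.96 in sham. Each ligated group overlapped sham. The arrays at 12 h stayed within a narrow band (SD 0.122), while the SD was 0.934 at 18 h, 0.931 at 6 h and 1.03 in sham. The difference from sham was 0.64 ± 0.55 at 18 h (95% interval -0.53 to 1.81, limma adjusted p 0.565), -0.36 at 12 h (adjusted p 0.816) and -0.49 at 6 h (adjusted p 1). At 12 h the difference was -1.19 within replicates 1 and 2 (adjusted p 0.0619) and 0.48 within replicates 3 and 4 (adjusted p 0.668), so the pairs of arrays differed in sign without a call in either. The residual SD of Gpx3, 0.839, was larger than that of 95.7% of tested probe sets.

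The remaining members gave no level told from background. Gpx6, known from the olfactory epithelium of rodents, sat at 2.22 on all 16 arrays. Gpx7, the peroxidase of the endoplasmic reticulum, was at 3.34 to 4.18, with group means of 3.83 at 18 h, 3.94 at 12 h and 3.75 at 6 h, against 3.70 in sham. The second probe set annotated to Gpx4 was at 2.22 on all arrays, in contrast to the leading one. The 2 probe sets of Gpx4 therefore disagreed about whether the gene is detected, and the values above are those of the leading probe set. Gpx5 and Gpx6 lie next to each other on chromosome 17 of GRCr8, Gpx6 at chr17:48104197-48111816 on the minus strand and Gpx5 at chr17:48131853-48138801 on the plus strand.

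**Figure D2:**
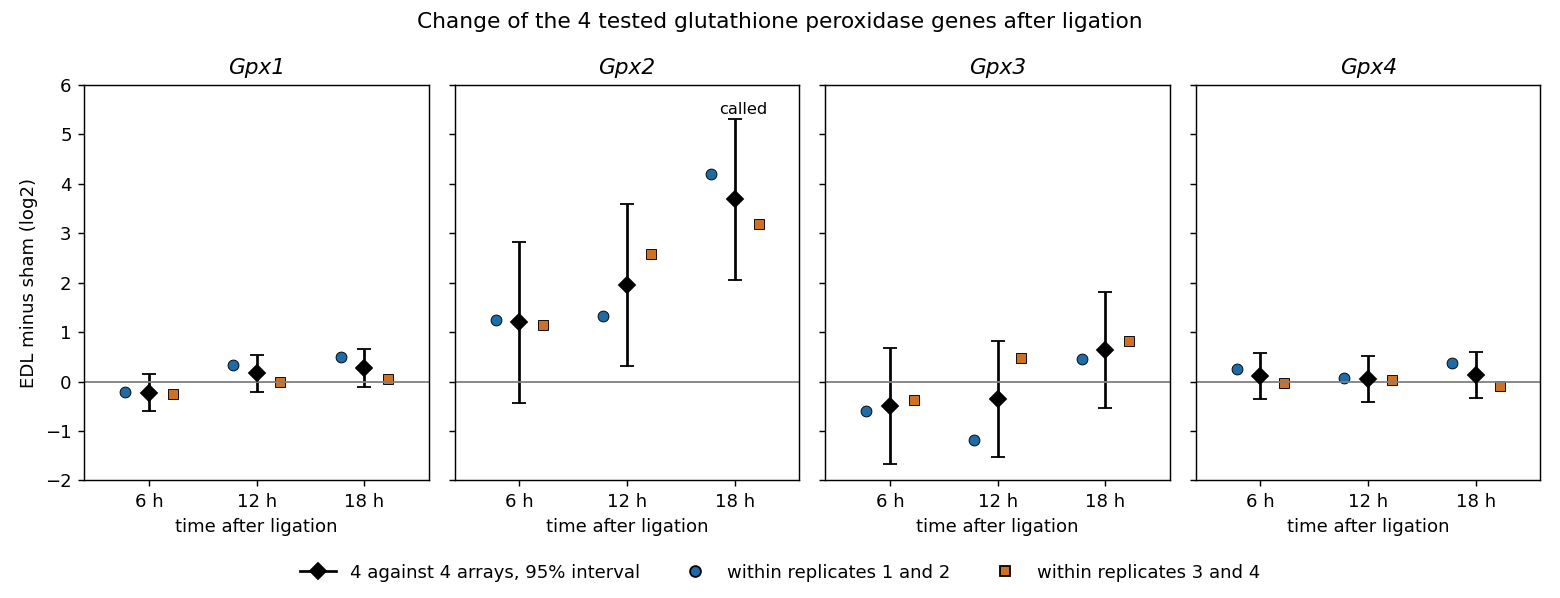
Difference in log2 level between EDL and sham (vertical axis) at 6, 12 and 18 h for the 4 tested genes, with black diamonds for all arrays, bars for 95% intervals, and the difference within replicates 1 and 2 (blue circles) and within replicates 3 and 4 (orange squares). Only the interval of Gpx2 at 18 h belongs to a called change, measured at 3.69 but at 1.56 once arrays in the background are set at 5. The intervals of Gpx1, Gpx3 and Gpx4 include 0 at every time.

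Against sham, then, limma called 1 of the 4 tested genes at 18 h, where 10.2% of all tested probe sets were called, and none at 12 h, where 7.86% were called, or at 6 h, where 0.283% were called. The called gene is the one that passed the minimum through ligated arrays alone, so nothing is read from this count. A limma F-test of the 3 times together called 10.2% of probe sets and gave adjusted p of 0.0269 for Gpx2, 0.266 for Gpx1, 0.507 for Gpx3 and 0.985 for Gpx4. The F-test call of Gpx2 was lost without replicate 1, 2 or 3 of 18 h or replicate 1, 2 or 3 of sham (adjusted p 0.0505 to 0.0797), with no minimum level (0.109), with the set of arrays as a block (0.0885) and within replicates 3 and 4 (0.389). Gpx3 was called by the F-test within replicates 1 and 2 alone (adjusted p 0.0496).

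Between ligated groups no member was called in the model without a block. At 18 h against 6 h the background was 7.88% and Gpx2 was higher by 2.49 ± 0.76 (limma adjusted p 0.0616), with 4.66 the lowest level at 18 h and 5.67 the highest at 6 h, so these groups overlapped. Without replicate 4 of 6 h the Gpx2 difference reached an adjusted p of 0.0299, without replicate 3 of 12 h 0.0436 and without replicate 4 of 18 h 0.019. With the pair of replicates as a block the Gpx2 difference had an adjusted p of 0.0316, and within replicates 1 and 2 alone 0.0138. Within replicates 3 and 4 it was 2.03 ± 1.29 (limma adjusted p 0.424). With the set of arrays as a block, or with no minimum level, the Gpx2 difference was not called. With every array under 5 set at 5, it was 1.39. The fits that called Gpx2 here used the minimum level that it passed through ligated arrays alone, so nothing is read from those calls. Gpx1 at 18 h lay above all arrays of 6 h, 10.13, 9.89, 10.39 and 10.54, by a mean of 0.50 ± 0.18 (adjusted p 0.108). That Gpx1 difference was called with the pair of replicates as a block (adjusted p 0.033) and with the set of arrays as a block, where it was 0.69 (adjusted p 0.0182). At 12 h against 6 h, with 4.28% of probe sets called, Gpx1 was higher by 0.39 (adjusted p 0.274) and Gpx2 by 0.76 (adjusted p 0.706). At 18 h against 12 h limma called 0 of the 13410 probe sets, 0%, with 877 at an unadjusted p under 0.05, and the differences were 1.73 for Gpx2, 1.00 for Gpx3, 0.11 for Gpx1 and 0.09 for Gpx4.

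Between the pairs of replicates, limma called 3 of the 4 tested members. Gpx4 was higher in replicates 3 and 4, at 11.29 to 11.54, than in replicates 1 and 2, at 10.62 to 11.31. With the group in the model that difference was 0.45 ± 0.10 (limma adjusted p 0.00318). Gpx3 went the other way, averaging 8.77 in replicates 3 and 4 but 9.85 in replicates 1 and 2, a difference of -1.08 ± 0.27 (adjusted p 0.0066). Gpx1 averaged 10.66 in replicates 3 and 4 and 10.37 in replicates 1 and 2, a difference of 0.28 ± 0.10 whose adjusted p of 0.0431 lay between 0.0553 and 0.0914 in 12 of the 16 fits with 1 array left out. Gpx2 averaged 4.93 in replicates 3 and 4 and 4.07 in replicates 1 and 2 (adjusted p 0.198), and without replicate 4 of 18 h its adjusted p was 0.0179. The count stands beside the background of 36.9%, so calls between these pairs were common on the arrays.

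Markers of some other cell types moved with the same divide. Other lists averaged higher in replicates 3 and 4 than in replicates 1 and 2. These were the sperm (7.59 against 7.16), initial segment (14.66 against 14.33) and more distal caput (14.97 against 14.91) lists. The summed level of 7 fibroblast markers was 12.90 to 13.72 in replicates 3 and 4 and 14.21 to 14.93 in replicates 1 and 2, all 7 being above the minimum. Smooth muscle markers (5 of 5 tested) summed to 12.22 to 12.83 in replicates 3 and 4 and 12.91 to 13.39 in replicates 1 and 2. Macrophage markers (6 of 8 tested, Cd163 and Adgre1 under 5 on all arrays) summed to 7.73 to 9.21 in replicates 3 and 4 and 8.90 to 10.09 in replicates 1 and 2. Fat markers summed to 4.86 to 6.65 in replicates 3 and 4 and 5.11 to 7.52 in replicates 1 and 2, with Adipoq, Plin1, Cidec and Lep under 5 on all arrays. Between the pairs, Gpx3 was low where fibroblast and smooth muscle markers were low, and Gpx4 was high there. Over the 16 arrays Gpx4 correlated at -0.741 with the fibroblast and -0.728 with the smooth muscle sum. After removing the mean of each pair of replicates these were -0.018 and -0.166. For Gpx3 the correlations were 0.677 and 0.604, and 0.301 and 0.15 after removing the pair means. Their part in the levels of Gpx3 and Gpx4 was not tested.

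**Figure D3:**
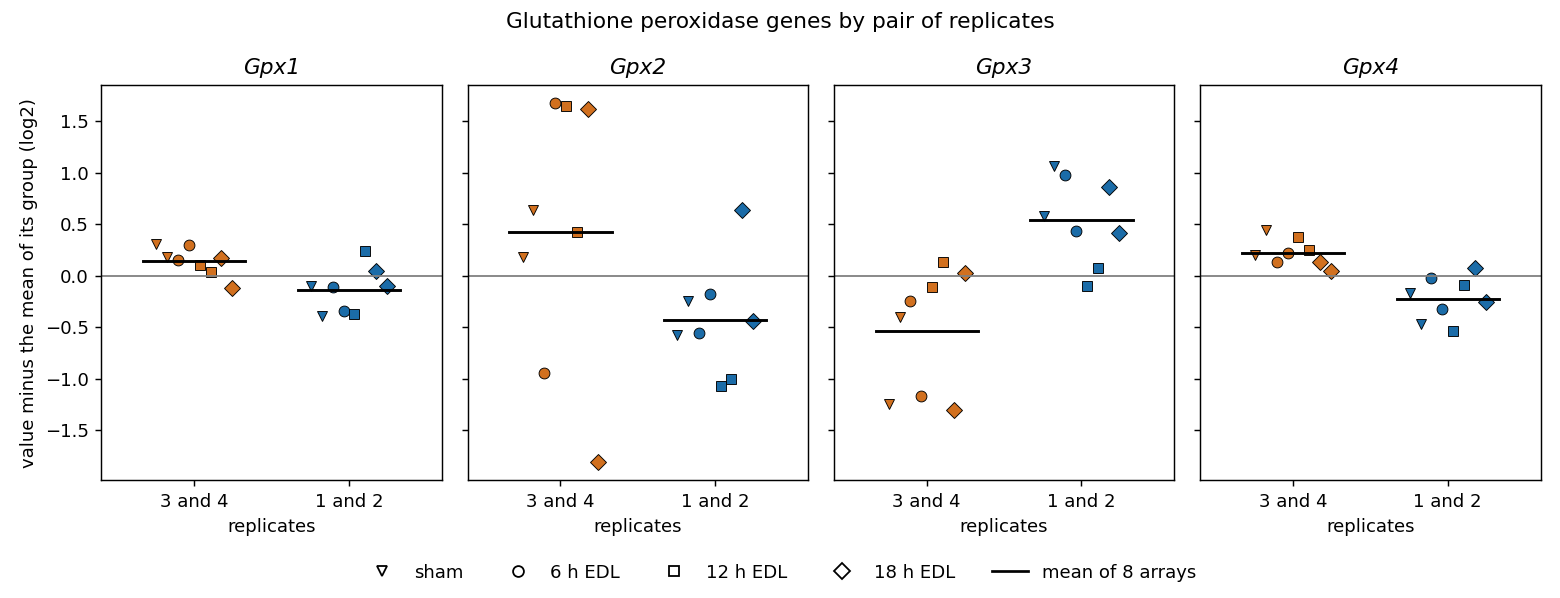
Deviation of each array from the mean of its group (vertical axis, log2) for the 4 tested genes, with the 8 arrays of replicates 3 and 4 left (orange) and the 8 arrays of replicates 1 and 2 right (blue), marker shapes for groups and black bars for means. Gpx4 lay above its group means in replicates 3 and 4 and Gpx3 mostly below, by 0.45 and -1.08 between the pairs.

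Of the 11 lists of cell type markers, 9 had a higher mean summed level at 18 h than in sham, and in 1 of these, the endothelial list, the arrays of the groups did not overlap. Some of the 9 barely differed, as fat (6.18 at 18 h, 6.15 in sham) and more distal caput (14.95 and 14.90), so nothing is read from this count. The sperm and initial segment lists had the lower means. The 4 matched endothelial markers summed to 8.07 to 8.81 at 18 h and 7.43 to 8.05 in sham. Only Kdr was tested and it was called higher by 0.96 (limma adjusted p 0.00876), whereas Pecam1, Vwf and Tek stayed under 5 on all arrays. The 6 epithelial markers summed to 13.95 to 14.38 at 18 h and 13.88 to 14.16 in sham, with none called. Macrophage markers summed to 8.83 to 10.01 at 18 h and 8.59 to 9.35 in sham, with 1 of 6 called higher (Cd14, by 1.92). Neutrophil markers summed to 4.50 to 5.28 at 18 h and 4.50 to 4.61 in sham. At 12 h they summed to 8.62 and 10.78 in replicates 1 and 2 and at most 4.61 in replicates 3 and 4. None of the 4 matched neutrophil markers was tested, and Csf3r and Cxcr2 lay under 5 on all arrays. The part of these cell types in the rise of Gpx2 was not tested.

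The 3 genes whose values followed Gpx2 most closely across the arrays, after removing the mean of each pair of replicates, were Tnfrsf21, which encodes a death receptor of the tumour necrosis factor receptor family, Stat3, a transcription factor activated by cytokines, and Tmem140, a gene for a transmembrane protein. The correlation with Gpx2 over the 16 arrays was 0.927 for Tnfrsf21, 0.925 for Stat3 and 0.924 for Tmem140, and without removing the pair means it was 0.863 for Tnfrsf21, 0.786 for Stat3 and 0.909 for Tmem140. These describe arrays that share the 4 groups, and the genes were picked for them. Gpx2 lay at or above 5 on only 6 of the 16 arrays, so most of its values in these correlations are not told from background. Tnfrsf21 was measured at 10.76, 11.00, 10.48 and 8.90 at 18 h, against 8.10, 7.94, 7.29 and 7.87 in sham. Stat3 was measured at 12.05, 12.29, 11.73 and 10.70 at 18 h, against 10.01, 10.06, 9.28 and 9.55 in sham. Tmem140 was measured at 8.90, 8.42, 9.19 and 7.89 at 18 h, against 6.63, 6.55, 6.52 and 6.51 in sham.

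In each of the 3 genes, as in Gpx2, replicate 4 was the lowest array of 18 h. Over the 500 genes of 8344 tested that were called higher at 18 h, that array was the lowest of its group in 279 genes, 55.8%, and replicate 3 was the highest of 12 h in 215 genes, 43%. Limma put the change at 18 h against sham at 2.48 ± 0.37 for Tnfrsf21 (adjusted p 0.000619), 1.97 ± 0.30 for Stat3 (adjusted p 0.000722) and 2.05 ± 0.30 for Tmem140 (adjusted p 0.000572). The 3 genes were picked for following Gpx2 on these same arrays. Their changes at 18 h and their low replicate 4 are therefore not separate results, and nothing is read from these p-values.

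**Figure D4:**
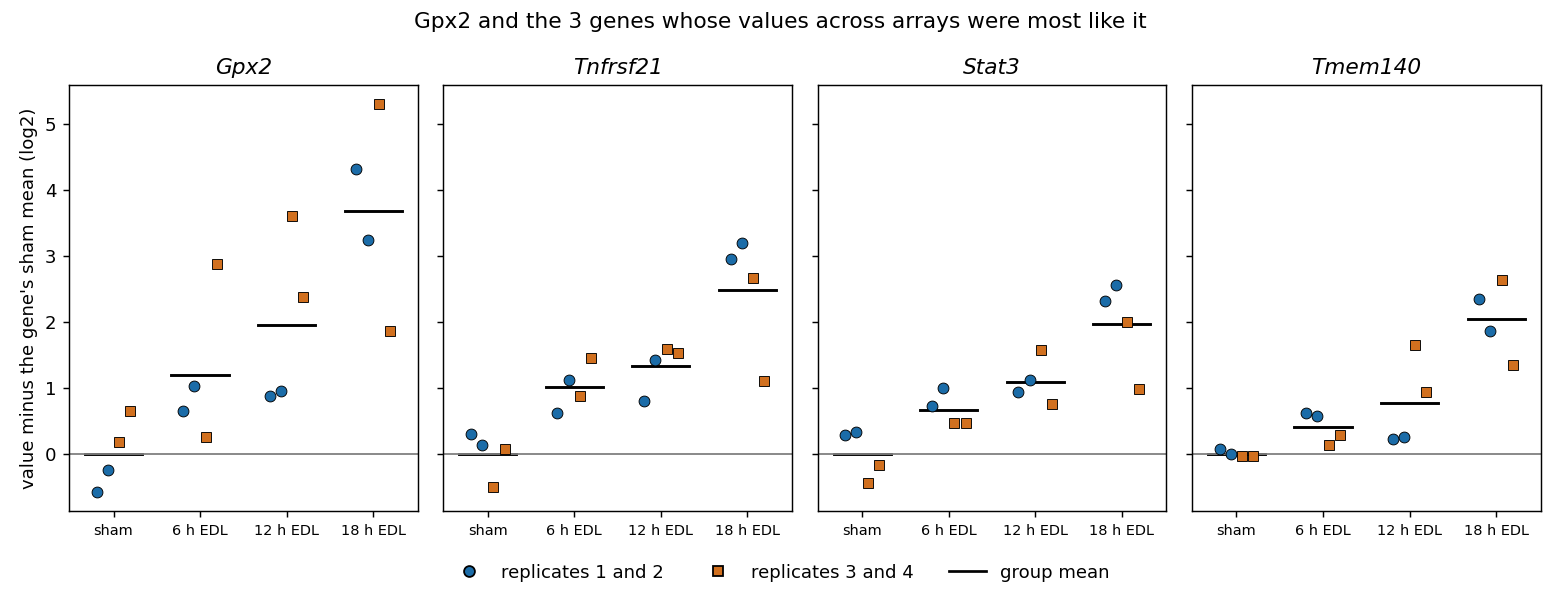
Level of Gpx2, Tnfrsf21, Stat3 and Tmem140 minus each gene's own sham mean (vertical axis, log2) on the 16 arrays, with blue circles for replicates 1 and 2, orange squares for replicates 3 and 4 and black bars for group means. Replicate 4 is the lowest 18 h array in all 4 genes, at 4.66 for Gpx2 before the sham mean is taken off. Gpx2 lay at or above 5 on only 6 of the 16 arrays.

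Of the genes that make, import and break down glutathione, the electron donor of these enzymes, some were called and in both directions. Of 12 tested genes of glutathione synthesis and recycling (15 listed), limma called 2 higher and 3 lower at 18 h, none higher and 2 lower at 12 h, and none at 6 h. Over all tested probe sets 5.2% were called higher and 4.96% lower at 18 h, and 3.77% higher and 4.09% lower at 12 h. Gclc and Gclm, the subunits of the enzyme of the first step of synthesis, were not called at 18 h (0.08 and -0.03). The list's median change was -0.12 at 18 h, -0.16 at 12 h and 0.03 at 6 h, where that of all tested genes was 0.03, 0.03 and 0.02. Slc7a11, the cystine importer that feeds glutathione synthesis, was at 9.01, 9.58, 10.01 and 8.18 at 18 h, against 4.59, 4.40, 4.90 and 4.70 in sham. All sham arrays were in the background, so counted from 5 its rise was at least 4.19 on the log2 scale. The measured change was 4.55 ± 0.80 (limma adjusted p 0.00194). Slc7a11 passed the minimum level through ligated arrays alone, as did Chac1, the other gene called higher. Nothing is therefore read from the adjusted p of Slc7a11 or from the count of genes called higher in this list. At 12 h Slc7a11 was at 8.96 and 7.30 in replicates 3 and 4 but at 4.41 and 4.49 in replicates 1 and 2, as Gpx2 was above 5 in that pair only.

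Chac1, an enzyme that breaks glutathione down inside cells, was at 6.41, 8.27, 7.30 and 5.95 at 18 h, against 3.92, 4.16, 4.16 and 4.16 in sham. The measured change was 2.88 ± 0.87 with a limma adjusted p of 0.0498, at least 1.98 counted from 5. It was not called with no minimum level (adjusted p 0.153), with arrays centred (0.0528) or with quantile normalization again (0.0507). Nor was it called with the set of arrays as a block (0.0849) or within replicates 3 and 4 (0.212). With 1 array left out it was called in 4 of the 16 fits. Ggt5 and Ggt1, enzymes of the cell surface that cleave glutathione outside the cell, fell. Ggt5 was at 9.33, 9.69, 10.56 and 8.76 at 18 h, against 11.18, 12.02, 12.22 and 12.10 in sham, a change of -2.30 ± 0.36 (adjusted p 0.00079). Ggt1 changed by -0.77 at 18 h (adjusted p 0.00941) and Ggt5 and Ggt1 by -1.30 and -0.60 at 12 h (adjusted p 0.0383 and 0.0434). At 12 h Ggt5 was called in 7 and Ggt1 in 5 of the 16 fits with 1 array left out. The third gene called lower at 18 h was Gss, glutathione synthetase, by -0.62 (adjusted p 0.0468, but 0.231 with a block for the set of arrays), named here after its values were seen.

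Among 18 tested genes of other peroxide and superoxide enzymes (21 listed), limma called 1 higher and 1 lower at 18 h and none at 12 h or 6 h, close to the 10.2% called at 18 h over all probe sets, so nothing is read from the count. Txnrd1, a thioredoxin reductase and selenoprotein, was at 9.47, 9.46, 9.43 and 8.83 at 18 h, against 8.27, 8.53, 8.51 and 8.48 in sham, higher on all 4 arrays by 0.85 ± 0.14 (adjusted p 0.00117). Prdx6, a peroxiredoxin that also uses glutathione, was at 11.74, 11.77, 11.46 and 11.49 at 18 h, against 12.33, 12.21, 12.21 and 12.08 in sham, lower by -0.59 ± 0.16 (adjusted p 0.0284), a call kept in 11 of the 16 fits with 1 array left out. The list's median change was 0.03 at 18 h, 0.09 at 12 h and 0.01 at 6 h.

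Sod2, the superoxide dismutase of mitochondria, was singled out after its values were seen. It was at 10.61, 10.94, 10.36 and 9.40 at 18 h and at 10.97, 11.35, 9.44 and 9.51 at 12 h, against 9.44, 9.66, 9.23 and 9.01 in sham. Both times overlapped sham. The change was 0.99 at 18 h (limma adjusted p 0.156) and 0.98 at 12 h (adjusted p 0.184), and with the set of arrays as a block it was called, at 1.45 (adjusted p 0.00292) and 1.44 (adjusted p 0.00394).

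Gpx8, a family member of the endoplasmic reticulum that stood in this list, was singled out after its values were seen. It was higher at 12 h than at 6 h by 0.70 ± 0.18 (limma adjusted p 0.0478) and at 18 h than at 6 h by 0.65 ± 0.18 (adjusted p 0.0436), but not with the set of arrays as a block (0.0656 and 0.0709), and with 1 array left out it was called in 3 and 6 of the 16 fits. Against sham it was not called at 18 h (0.29, adjusted p 0.404), 12 h (0.34, adjusted p 0.351) or 6 h (-0.36, adjusted p 0.987).

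The selenocysteine members depend on genes for selenium handling. Of 10 tested genes for selenium and selenocysteine handling (11 listed) none was called at any time, where 10.2% of all probe sets were called at 18 h, 7.86% at 12 h and 0.283% at 6 h, so a list of this size would hold few calls at that rate. It had median changes of 0.14 at 18 h, 0.09 at 12 h and 0.01 at 6 h. The smallest p at 18 h was that of Secisbp2, which encodes a protein needed to insert selenocysteine, at 0.45 ± 0.16 (adjusted p 0.11). Of 10 tested other selenoprotein genes (14 listed) none was called, with medians of -0.09, -0.14 and 0.01 at 18, 12 and 6 h, and the smallest p was that of Selenoh, at -0.60 ± 0.22 (adjusted p 0.111).

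**Figure D5:**
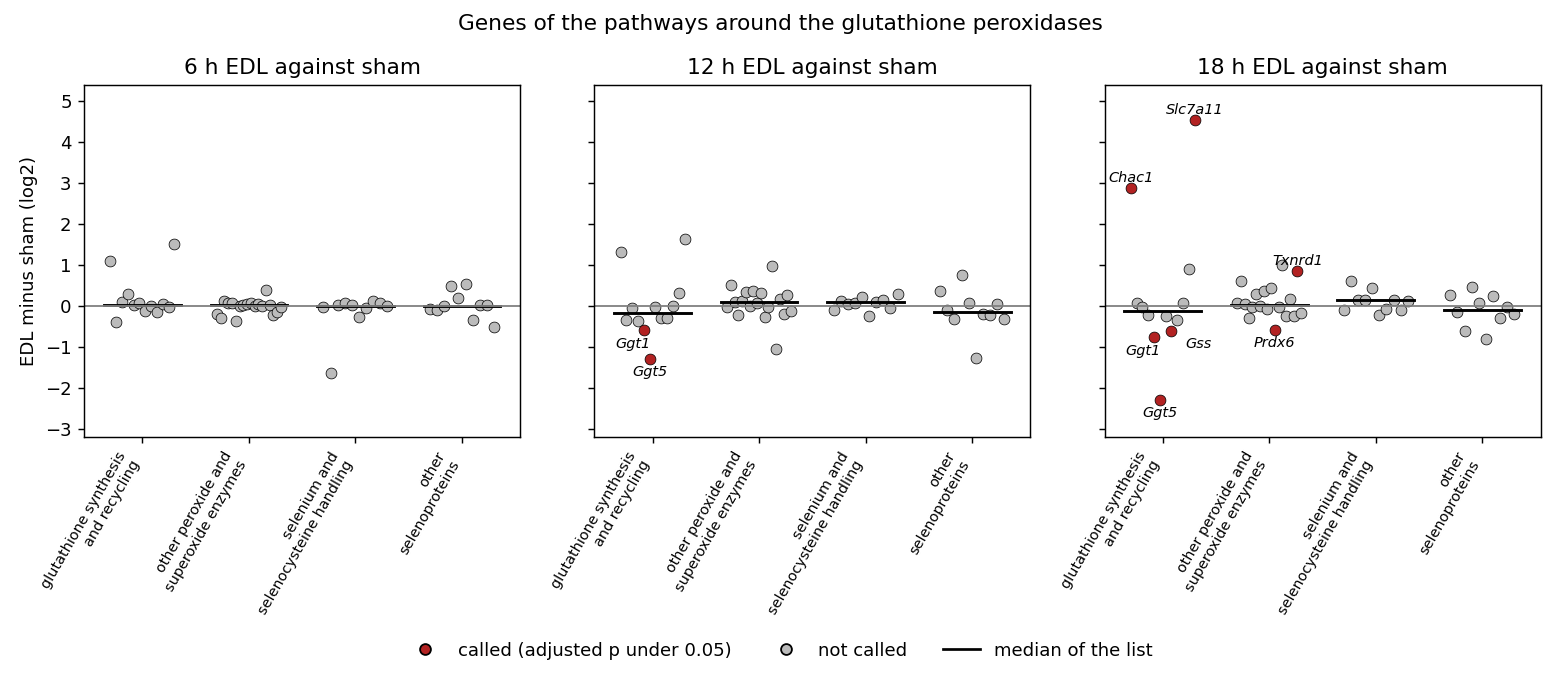
Difference in log2 level between EDL and sham (vertical axis) at 6, 12 and 18 h for the tested genes of 4 pathway lists, with points for genes, red where limma called them, and black bars for list medians. Slc7a11 at 4.55 and Ggt5 at -2.30 are the outermost called genes at 18 h, and no gene of the selenium or selenoprotein lists was called.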

How the data were processed

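RNA from 16 samples of rat initial segment was hybridised to Affymetrix arrays, 1 array for each sample and 4 arrays in each group. The deposited value table gives 1 log2 value per probe set and array, made by the authors with GCRMA per the submitters' processing notes. GCRMA corrects background by probe sequence and then applies quantile normalization. The sources used here give no version for it. Undetected probe sets lie at or near a floor of 2.22, and a called rise from such values is also given counted from 5. Scanner files were not analysed here.

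Of 31099 probe sets, 57 controls were left out, and 20826 of the remaining 31042 had 1 gene symbol, 436 several and 9780 none in the platform annotation. Other genes were likewise led by 1 probe set, that of highest mean over the arrays. Differences were fitted with limma 3.58.1 in R 4.3.3 (lmFit and eBayes, 1 model of 4 group means), with Benjamini-Hochberg adjustment over the 13410 probe sets with at least 5 in 4 or more arrays, and calls were made at an adjusted p under 0.05. The fit was tested on simulated normal data. These had no floor and no difference between pairs or sets of arrays, so they do not cover those conditions. Since the labels do not tie numbers to animals, p-values measure the spread between these arrays, and 0 pairs of arrays were identical. Promoters are from RefSeq on GRCr8.

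The members and lists were chosen with earlier results of these data known. Named genes were all members, up to 3 called genes with the largest change from each list and comparison with sham (where none was called, the gene with the smallest p at 18 h), and the 3 genes most correlated with a called member. Gpx8, Gss, Sod2, Gclc, Gclm and Srxn1 were named after their values were seen, as were the marker genes. Alternatives were no minimum level or one of 7, a robust prior with an intensity trend, arrays centred or quantile normalized again, only the 2 groups compared, blocks for the replicate number, the pair of replicates and the set of arrays, each pair alone, array weights (statmod 1.5.0), probe sets averaged by symbol, and each array left out in turn. The set was read from the dap control and the replicate number.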

Additional observations from a re-analysis of the deposited data

How the results depend on the processing

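Of 690 alternative values for the differences of the 4 tested members in 6 comparisons, 650 kept their direction and side of the threshold, 1 lost its call, 10 gained one and 29 changed sign without a call on either side (21 for Gpx4, 5 for Gpx3, 3 for Gpx1, adjusted p 0.271 or higher), and no called value changed sign. The sign changes of Gpx3 were as large as -0.59, at 12 h against 6 h within replicates 1 and 2, where all arrays gave 0.13. At 18 h against sham the count of members called higher was 1, and it fell to 0 with the minimum of 7, where Gpx2 was not tested, and to 0 within replicates 3 and 4 alone. At 18 h against 12 h it was 0, and 1 within replicates 1 and 2 alone (Gpx2, 2.87, adjusted p 0.033). At 18 h against 6 h it was 0, and 1 with the replicate block, 2 with the pair-of-replicates block, 1 with the set block, 1 within replicates 1 and 2 alone, 1 with array weights, and 0 to 1 with single arrays left out. There Gpx2 had adjusted p of 0.0492, 0.0316 and 0.0133 under the replicate block, the pair-of-replicates block and array weights, and Gpx1 of 0.033 under the pair-of-replicates block and 0.0182 under the set block. The replicate block left the Gpx2 call at 18 h against sham in place (adjusted p 0.007). These Gpx2 values rest on the minimum level that it passed through ligated arrays alone. Same-numbered arrays correlated at 0.007 to 0.556 in their deviations from group means, over 0.1 in 23 of 24 pairs, and 11 of 16 arrays correlated best with their own number, a hint of pairing from the data. Arrays of the other number in the same pair of replicates correlated at -0.006 to 0.63. As the labels do not tie numbers to animals and 1 pair lay under 0.1, the numbers were not taken as pairs.

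List counts moved more. For glutathione synthesis and recycling, the 2 genes lower at 12 h became 0 with no minimum level, with only the 2 groups compared and within either pair of replicates, and 0 to 2 with single arrays left out. The 2 genes higher at 18 h became 1 with no minimum level, the minimum of 7, centred arrays, quantile normalization or replicates 3 and 4 alone, and 1 to 3 with single arrays left out, and the 3 lower became 1 within replicates 1 and 2. For other peroxide and superoxide enzymes at 12 h, the 0 higher became 2 (replicate block), 1 (pair-of-replicates block), 1 (set block), 1 (replicates 1 and 2) and 3 (array weights), and the 0 lower became 2 with array weights. At 18 h the 1 higher became 2 with no minimum level, 4 with the replicate block, 2 with the pair-of-replicates block, the set block, replicates 1 and 2 or array weights, and 0 within replicates 3 and 4. The 1 lower became 0 with no minimum level or within replicates 1 and 2, 2 with the replicate or pair-of-replicates block, 3 with array weights, and 0 to 1 with single arrays left out. For selenium handling at 12 h the 0 higher became 1 under the replicate and the pair-of-replicates block. For other selenoproteins, the 0 higher at 12 h became 1 with the set block and with array weights, the 0 lower at 12 h became 1 with array weights, and the 0 lower at 18 h became 2 with the replicate or pair-of-replicates block and 1 with array weights. The causes of these moves were not tested. Probe sets called over the whole array ranged from 3 to 104 at 6 h (38 in the main setting), 477 to 2426 at 12 h (1054) and 827 to 2179 at 18 h (1362) against sham, and from 115 to 1471 at 12 h against 6 h (574), 0 to 110 at 18 h against 12 h (0) and 460 to 2030 at 18 h against 6 h (1057). Levels under 5 limit what Gpx2, Gpx6 and Gpx7 can show.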

Other observations

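Srxn1, the sulfiredoxin gene whose product restores overoxidised peroxiredoxins, did not pass the minimum level and was picked out after its values were seen. It was at 6.64, 6.06, 7.33 and 2.92 on the log2 scale in replicates 1 to 4 of 18 h, against 2.22, 2.22, 2.29 and 2.22 in sham. The arrays of 12 h and 6 h were at 3.87 or lower. The array of 18 h at 2.92 is replicate 4, the one in which Gpx2 was lowest. Srxn1 was not tested in the main fit. The fit with no minimum level included it, and its result there is not given here.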
